A study of Sus scrofa with 28 samples.

Results

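Nerve and synapse genes were followed in loin muscle through 6 genes, GPM6B, CNTN3, NRXN3, PTPRD, MAP1B and MTUS2, to ask whether they moved together or gene by gene between genetic types. They were found by symbol, in the study's own list of differential genes first and in the array's annotation otherwise, and are represented by 10 of the 5226 probe sets in the deposited table. Of these 10 probe sets, 9 belong to the list that the study chose with this same contrast on these arrays, and the second GPM6B probe set (Ssc.14334.1.S1_at) bears that name only in the array's annotation. The members' differences between genetic types below are therefore a description. Where a member is said to pass, this gives only its side of the threshold in a fit over all probe sets, and nothing rests on it. Longissimus dorsi muscle was taken from male piglets killed at weaning, at 28 days of age, after suckling their dams. The groups were 14 purebred Iberian piglets (IB) and 14 crossbred piglets (DU×IB) of Duroc boars and Iberian sows, so that all dams were Iberian and the sire's breed set the groups apart. Each piglet had an array of its own. The methods state fewer litters than piglets, with fewer crossbred than purebred litters, and litter was not given in the labels, so that breed of sire and litter cannot be told apart here.

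Skeletal muscle holds the ends of motor axons, the Schwann cells that wrap them, and the neuromuscular junction where an axon meets a fibre. The soma of a motor neuron lies in the spinal cord, so most neuronal transcripts are made outside the muscle, and a transcript named for nerve can also come from fibres, connective tissue or vessels of the muscle itself. NRXN3 is a neurexin, a presynaptic adhesion protein that binds postsynaptic partners such as neuroligins. PTPRD is a receptor tyrosine phosphatase that organizes presynaptic terminals, and CNTN3 is a contactin, an immunoglobulin-type adhesion protein anchored in the axon membrane. GPM6B is a membrane glycoprotein of neurons and glia. MAP1B binds microtubules in growing axons, and MTUS2 is a scaffold protein of microtubules.

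The values are log2 levels summarized per probe set by GCRMA. They ran from 1.44 to 15.7, with a median of 6.73, and 10% of them were under 4.00. Bacterial spike-in RNA, which holds no piglet RNA, split the arrays into a series of 16 (8 of each genetic type) and a series of 12 (6 of each), with mean spike-in levels of 8.93 to 9.68 and 6.19 to 7.01. The first principal component of all values carried 47.4% of the variance and was tied to the series (r² = 0.797), not to genetic type (r² = 6.7e-05). No pair of arrays held identical values. Of 26 muscle genes looked for, 4 had a named probe set, ATP2A1, ATP2A2, PYGM and RYR1, with medians from 7.49 to 12.6. Differences come from a limma fit of genetic type with the series as a block, and a probe set passed where its Benjamini-Hochberg adjusted p over all 5226 was under 0.10.

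The members differed between genetic types in sign and in size, and whether their differences differ from each other was not tested. Mean levels of 8 of the 10 probe sets were higher in DU×IB than in IB and those of the other 2 were lower, from -0.83 for NRXN3 to 1.73 for the first GPM6B probe set on the log2 scale. With the series as a block 8 passed, beside 2.77% of all probe sets, and this count says nothing about nerve because the members came from a list chosen with the contrast. Without the series 3 passed, GPM6B, NRXN3 and MTUS2, beside 0.995% of all probe sets. Genetic types overlapped in all 10 probe sets, and 0.0383% of all probe sets had groups that did not overlap.

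**Figure D1:**
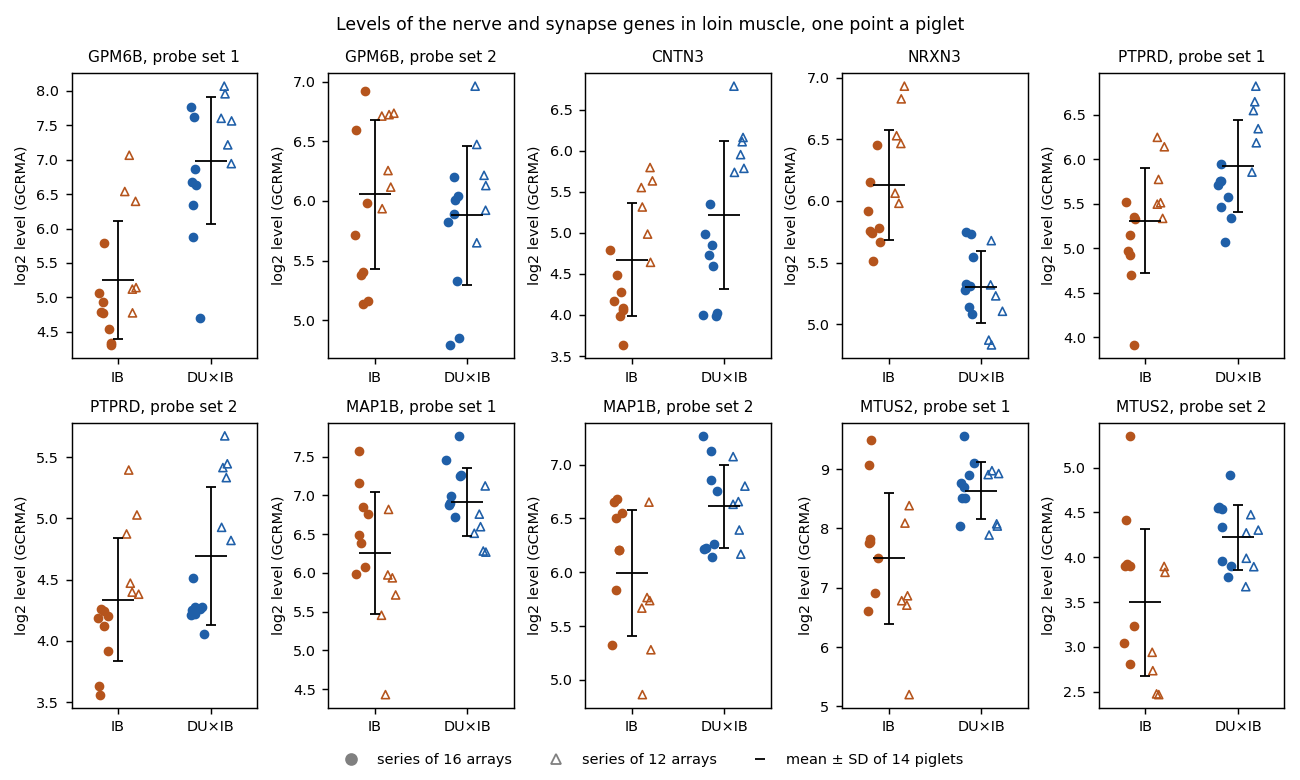
Log2 level (GCRMA) of each member probe set in each piglet, by genetic type, with filled circles for the series of 16 arrays, open triangles for the series of 12, and the mean ± SD of 14 piglets in black. NRXN3 is the member that lies lower in DU×IB in 14 of 14 piglets against the IB median, and GPM6B has 1 probe set that differs by 1.73 and 1 that differs by -0.18.

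Among the adhesion proteins, NRXN3 (Ssc.28128.1.A1_at) went the other way from its companions. Its level ran from 5.52 to 6.93 in IB, with a median of 6.02, and from 4.83 to 5.75 in DU×IB, with a median of 5.30. Every one of the 14 DU×IB piglets was under the median of IB, and the ranges overlapped only between 5.52 and 5.75. The means were 6.13 ± 0.45 (SD, n = 14) in IB and 5.30 ± 0.29 (SD, n = 14) in DU×IB, a difference of -0.83 (SE 0.15), or 1.78-fold lower in DU×IB.

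PTPRD had a pair of probe sets. On the first (Ssc.6106.1.S1_at) IB piglets ran from 3.91 to 6.25, with a median of 5.34, and DU×IB piglets from 5.07 to 6.82, with a median of 5.81. On the second (Ssc.19270.1.S1_at) they ran from 3.56 to 5.40, with a median of 4.25, in IB and from 4.06 to 5.67, with a median of 4.40, in DU×IB. Both were higher on average in DU×IB, by 0.62 (SE 0.15) and 0.36 (SE 0.13), with 12 and 11 of 14 DU×IB piglets above the IB median. The first passed and the second did not.

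CNTN3 (Ssc.2664.1.S1_at) was somewhat higher in DU×IB. Its level was 3.64 to 5.80 in IB, with a median of 4.56, and 3.99 to 6.79 in DU×IB, with a median of 5.17. The difference between genetic types was 0.55 (SE 0.17), with 11 of 14 DU×IB piglets above the IB median. The difference between the series was 1.33, higher in the series of 12, more than the difference between genetic types.

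GPM6B, the glial and neuronal membrane glycoprotein, gave the largest difference of the 6 genes and also the clearest disagreement between probe sets of 1 gene. On the first probe set (Ssc.8133.1.A1_at) IB piglets ran from 4.31 to 7.07, with a median of 5.00, and DU×IB piglets from 4.70 to 8.07, with a median of 7.08. The means were 5.25 ± 0.86 and 6.99 ± 0.92 (SD, n = 14 each), a difference of 1.73 (SE 0.26), or 3.32-fold, and 13 of 14 DU×IB piglets lay above the IB median. The exception was DU×IB replicate 7, at 4.70, while IB replicates 10, 11 and 13 reached 6.54, 6.40 and 7.07.

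The second GPM6B probe set (Ssc.14334.1.S1_at) did not follow. It ran from 5.13 to 6.92 in IB, with a median of 6.05, and from 4.79 to 6.96 in DU×IB, with a median of 5.97. The difference was -0.18 (SE 0.20) and did not pass. Its name rests on the array's annotation alone, and which transcripts either probe set reads was not tested.

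The microtubule genes were each measured by a pair of probe sets that went the same way. For MAP1B, the first (Ssc.6093.1.S1_at) ran from 4.43 to 7.58 in IB, with a median of 6.23, and from 6.27 to 7.77 in DU×IB, with a median of 6.89. The second (Ssc.6093.2.A1_at) ran from 4.86 to 6.68 in IB, with a median of 6.02, and from 6.14 to 7.27 in DU×IB, with a median of 6.64. All 14 DU×IB piglets lay above the IB median on both, with differences of 0.65 (SE 0.19) and 0.62 (SE 0.18). On the first probe set the upper ends of the groups, 7.58 and 7.77, were closer than the lower ends, 4.43 and 6.27. The same held on the second, with upper ends of 6.68 and 7.27 and lower ends of 4.86 and 6.14. On both probe sets both ends lay lower in IB.

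MTUS2 was also higher on average in DU×IB on both probe sets. On the first probe set (Ssc.26369.1.S1_at) IB piglets ran from 5.20 to 9.49, with a median of 7.63, and DU×IB piglets from 7.89 to 9.56, with a median of 8.73. The difference was 1.14 (SE 0.29), or 2.20-fold, and the SD was 1.10 in IB against 0.48 in DU×IB. The second probe set (Ssc.26369.2.S1_at) was dim, from 2.47 to 5.35 in IB, with a median of 3.53, and from 3.67 to 4.92 in DU×IB, with a median of 4.29, among the lowest values of the table. Its difference was 0.73 (SE 0.22), and all 14 DU×IB piglets lay above the IB median on both probe sets.

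The series moved the members in opposite directions. Their levels were higher in the series of 12 for 6 probe sets, those of GPM6B (1.01 and 0.62), CNTN3 (1.33), NRXN3 (0.19) and PTPRD (0.80 and 0.88). They were lower there for the 4 probe sets of MAP1B (-0.75 and -0.29) and MTUS2 (-0.58 and -0.49). Array medians over all probe sets were also higher in the series of 12, at 6.875 to 7.053 against 6.005 to 6.710. A rise there is therefore not particular to the members. The difference between genetic types kept its sign in both series for 10 of 10 member probe sets, beside 55.6% of all probe sets, a share that the choice of members favours. The difference was larger in size in the series of 12 for 9 of the 10, beside 64.0% of all probe sets.

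**Figure D2:**
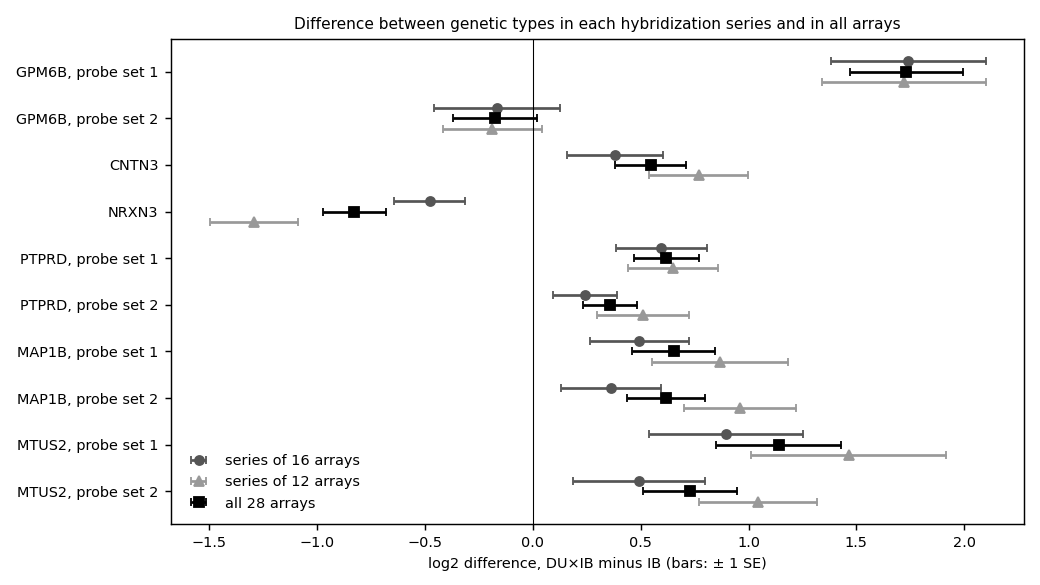
Log2 difference, DU×IB minus IB, of each member probe set with bars of ± 1 SE, in the series of 16 arrays (circles), the series of 12 (triangles) and all 28 arrays (squares). NRXN3 stands at -0.48 and -1.29 in the series, GPM6B's first probe set at 1.74 and 1.72.

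Whether a difference had another size in the other series was not part of the choice of members and was tested. No member passed, and 0 of 5226 probe sets passed at an adjusted p under 0.10 by limma, with 333 (6.37%) under an unadjusted p of 0.05. NRXN3 was the 1 member under that unadjusted p. Its difference was -0.48 (SE 0.17) in the series of 16 and -1.29 (SE 0.20) in the series of 12, an interaction of -0.82 (SE 0.26, unadjusted p = 0.00419, adjusted p = 0.685 by limma). In the series of 12 its groups did not overlap, with 6 IB piglets from 5.98 to 6.93 and 6 DU×IB piglets from 4.83 to 5.68, which held for 2.43% of all probe sets. In the series of 16 they overlapped, from 5.52 to 6.45 in IB and from 5.08 to 5.75 in DU×IB, and groups without overlap were 0.0765% there. The first GPM6B probe set gave 1.74 (SE 0.36) and 1.72 (SE 0.38), an interaction of -0.02 (SE 0.54).

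Whether the members vary together from piglet to piglet was not part of their choice either, and the members were correlated over the 28 piglets after the mean of each genetic type within each series was removed. With 1 probe set a gene, that of highest mean, the 15 pairs of genes had a median r of 0.023, from -0.165 to 0.496, and 8 of the 15 were positive. None passed at an adjusted p under 0.10 in a two-sided permutation test, and 1 had an unadjusted p under 0.05. That pair was PTPRD and MAP1B, with r = 0.496 (permutation p = 0.0144, adjusted p = 0.216) and rho = 0.504 (permutation p = 0.0126, adjusted p = 0.189). It was 0.593 in the series of 16 and 0.402 in the series of 12, and 0.489 without the 2 piglets farthest from the median of PTPRD.

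Other choices of probe set moved r for some pairs, and 1 of them changed a call. Of the 26 other combinations of probe sets from different members, 1 passed when put in place of its pair, the first PTPRD with the second MAP1B probe set (r = 0.567, permutation p = 0.0036, adjusted p = 0.054). That adjustment covers the 15 pairs of genes and not the search over the 26 combinations, so no conclusion is drawn from this call. The second PTPRD probe set had r = 0.182 and 0.336 with those of MAP1B (permutation p = 0.481 and 0.122). The presynaptic adhesion genes NRXN3 and PTPRD had r = 0.266 (permutation p = 0.205, adjusted p = 0.768), and NRXN3 and GPM6B had r = -0.094 (permutation p = 0.655, adjusted p = 0.891).

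Several correlations turned on the series. When genetic type means were removed and the series was left in, CNTN3 and PTPRD had r = 0.703 and GPM6B and CNTN3 had r = 0.593, against 0.208 and 0.235 with the series removed, and 4 of the 15 pairs then passed. Within the series of 16, CNTN3 and PTPRD had r = 0.412, and within the series of 12, -0.138.

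**Figure D3:**
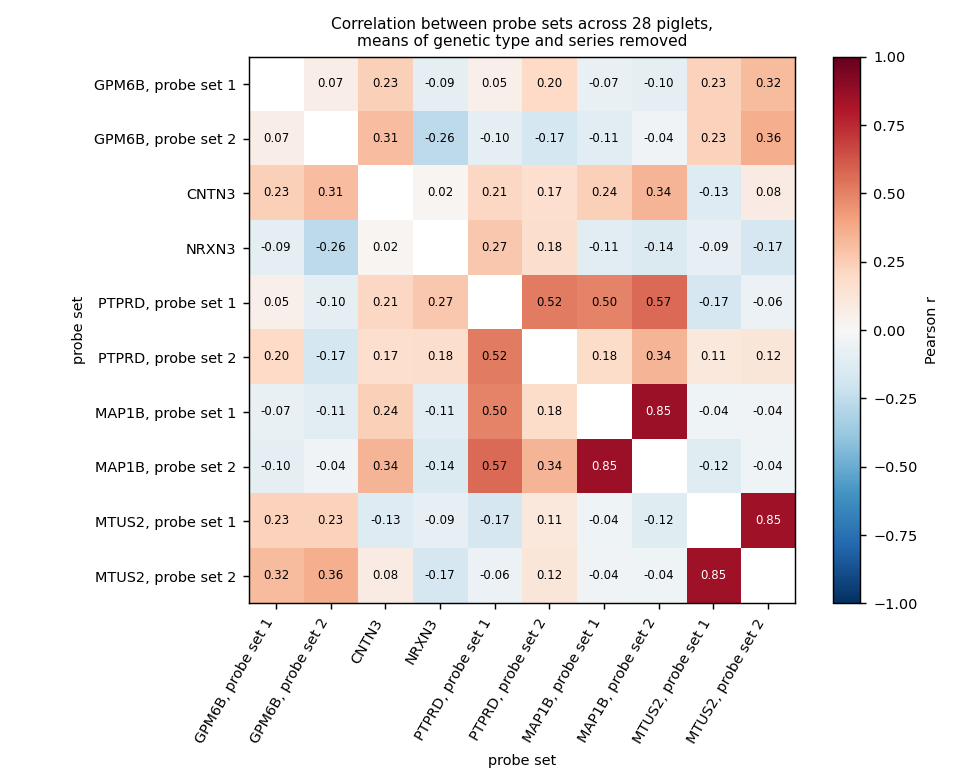
Pearson r between the 10 member probe sets across 28 piglets, with the means of genetic type and series removed, from -1 in blue to 1 in red. The darkest cells are those of probe sets of 1 gene (MAP1B 0.855, MTUS2 0.851) and then the first PTPRD with the second MAP1B probe set (0.567) and the PTPRD pair (0.522), and the pair of GPM6B is pale (0.066).

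The probe sets of MAP1B share the first number of their identifiers, as do those of MTUS2, while those of PTPRD and of GPM6B do not. The second GPM6B probe set is named by the array's annotation alone. With these limits, pairs of probe sets named for 1 gene showed how high r could be on these arrays. It was 0.855 for MAP1B and 0.851 for MTUS2 (permutation p = 1e-05 each, the smallest that 100000 resamples can give, adjusted p = 2e-05 over 4 pairs), with rho = 0.827 and 0.885 at the same p. For PTPRD it was 0.522 (permutation p = 0.00955, adjusted p = 0.0127), with rho = 0.519 (permutation p = 0.0131, adjusted p = 0.0175), and 0.347 without the 2 farthest piglets. For GPM6B it was 0.066 (permutation p = 0.745), with rho = 0.122 (permutation p = 0.539). The dim second MTUS2 probe set thus varied with its brighter partner, while the probe sets named GPM6B differed by 1.73 and -0.18 between genetic types and had an r near 0.

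**Figure D4:**
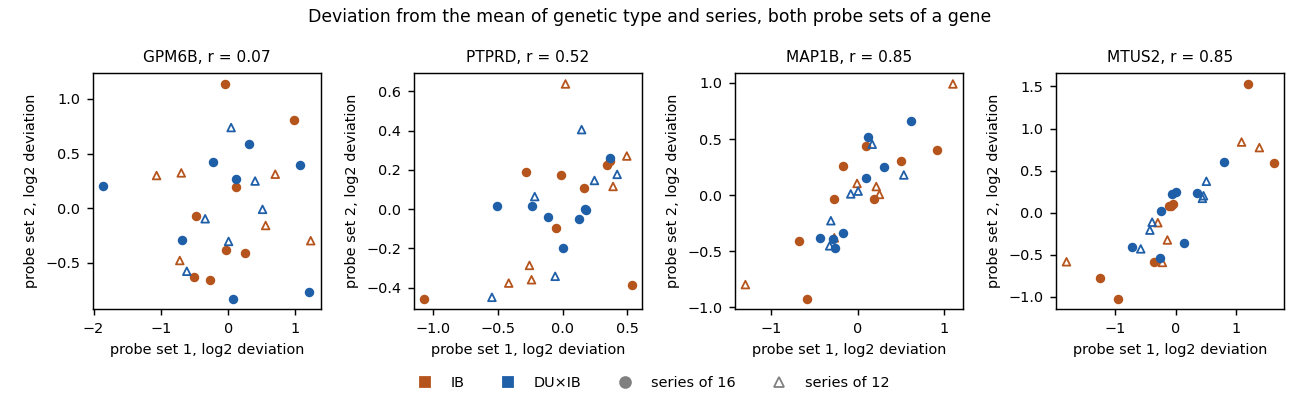
Deviation of each piglet from the mean of its genetic type and series on the first and second probe set of a gene, both in log2, for the 4 genes with a pair of probe sets. The points of MAP1B and MTUS2 follow a line (r of 0.855 and 0.851) and those of GPM6B form a cloud (r of 0.066).

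Genetic types were also compared in how far members varied together. PTPRD and MAP1B had r = 0.679 in IB and -0.009 in DU×IB (permutation p of the difference = 0.00809, adjusted p = 0.121 over 15 pairs). GPM6B and NRXN3 had r = -0.472 in IB and 0.311 in DU×IB (permutation p of the difference = 0.0287, adjusted p = 0.216). Neither passed, and the other 13 pairs had an unadjusted p over 0.05.

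Each member had other genes as nearest companions, named by the highest residual r over 28 piglets and given with no test because they were picked for it. GPM6B varied most like ARMC6 (0.674), ENPP4 (0.563) and LMCD1 (0.537), and CNTN3 like TRA2A (0.785), XIRP2 (0.738) and FUBP1 (0.708). XIRP2 is an actin-binding protein of striated muscle, and TRA2A and FUBP1 bind RNA or DNA in the nucleus. CNTN3 moved with a large part of the array, since 19.0% of all probe sets had an r with it beyond 0.5 in size, against 15.3% for the second GPM6B probe set, 10.7% and 9.7% for those of MAP1B and 1.21% to 5.53% for the other 6. NRXN3 varied most like OSGEP (0.599), SRF (0.594) and CDO1 (0.577), where SRF is a transcription factor of muscle and cytoskeletal genes.

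PTPRD varied most like MTHFD1 (0.698), TCF4 (0.685) and S1PR5 (0.677). MAP1B had the closest companions, COX7A2 (0.835), SERPINH1 (0.826) and TSPAN9 (0.814), where SERPINH1 is the collagen chaperone and COX7A2 a subunit of cytochrome oxidase. MTUS2 varied most like ZMAT3 (0.602), ABLIM1 (0.572) and CXCL16 (0.568), and these held in IB (0.619 to 0.788) and were lower in DU×IB (-0.251 to 0.195), a contrast that was not tested. The 18 companions were 18 different genes.

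Those lists held 347 genes for Schwann cells, axons, synapses, the neuromuscular junction, axon guidance and neurotrophic factors, of which 33 had a named probe set in the table. With the series as a block 6 were higher in DU×IB, 1 was higher in IB and 26 did not pass. The shares of all probe sets that passed were 2.07% in the first direction and 0.708% in the second. Of the 33, 16 were in the study's list, chosen on these same arrays, and their calls are not independent evidence. All 145 probe sets that passed were in that list, so that 0 of the 4955 outside it passed. Of the 17 nerve genes outside it, 2 had an unadjusted p under 0.05 by limma (11.8%), beside 9.14% of all probe sets outside the list. Their median difference was 0.13, with 10 above 0 and 7 below, from -0.58 to 0.64, and the median of all probe sets was 0.02.

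The genes of Schwann cells gave no direction. Of 31 listed, 2 were measured. MBP, a protein of myelin, was 6.36 ± 0.75 in IB and 6.34 ± 0.67 in DU×IB (SD, n = 14 each), a difference of -0.02 (SE 0.26, adjusted p = 0.986 by limma). CRYAB, which is also a chaperone of the muscle fibre, differed by 0.03 (SE 0.21, adjusted p = 0.973 by limma). Both pooled values join opposite signs. MBP differed by 0.40 in the series of 16 and -0.57 in the series of 12, and CRYAB by -0.38 and 0.58. The other genes of the list were not analysed here.

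The axon list had 4 measured genes and none passed. MAP4, a microtubule protein of many cell types, differed by -0.14 (SE 0.14, adjusted p = 0.727 by limma). STMN1, which destabilizes microtubules, differed by 0.52 (SE 0.19, adjusted p = 0.182), DCLK1, a kinase that binds them, by 0.55 (SE 0.18, adjusted p = 0.14), and DST, a linker of the cytoskeleton, by 0.64 (SE 0.30, adjusted p = 0.332). The median of the list was 0.53.

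In the synapse list 1 of 5 measured genes was higher in DU×IB and 1 lower, with a median of 0.17. SYN3, a synapsin of synaptic vesicles, was 7.46 ± 1.99 in IB and 9.20 ± 0.68 in DU×IB (SD, n = 14 each), higher by 1.74 (SE 0.52, adjusted p = 0.0927 by limma). HOMER3, a postsynaptic scaffold, fell by 0.58 in DU×IB (SE 0.14, adjusted p = 0.027 by limma). Its relative HOMER2 differed by 0.20 (SE 0.18, adjusted p = 0.702) and RAB3A, of vesicle release, by 0.17 (SE 0.16, adjusted p = 0.715).

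At the neuromuscular junction 1 of 8 measured genes passed. CHODL, a lectin of motor neurons and muscle, rose in DU×IB by 1.06 (SE 0.25, adjusted p = 0.0202 by limma), from 5.41 ± 0.93 to 6.47 ± 0.79 (SD, n = 14 each). The 3 genes of highest level were ANKRD1, an ankyrin repeat protein of striated muscle, at -0.40 (SE 0.75, adjusted p = 0.878), LAMB2, the laminin chain of the synaptic basal lamina, at 0.25 (SE 0.15, adjusted p = 0.47), and ETV5, a transcription factor, at 0.17 (SE 0.13, adjusted p = 0.653). GADD45A, which rises in denervated muscle, differed by -0.58 (SE 0.44, adjusted p = 0.618). The median of the list was 0.15.

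The 7 measured genes of axon guidance and neural adhesion all belonged to the study's list. ROBO1, a receptor for Slit proteins, was higher in DU×IB by 0.70 (SE 0.19, adjusted p = 0.0611 by limma) and MYOC, myocilin, by 0.76 (SE 0.22, adjusted p = 0.0854). Of the 7, 6 lay above 0 and the median was 0.68. The other 5 did not pass, and CDH8, a cadherin, had the largest difference of the list at 1.03 (SE 0.33, adjusted p = 0.11). OLFM1, an olfactomedin like MYOC, differed by -0.84 (SE 0.27, adjusted p = 0.114). SEMA3E and CDH11, with MYOC the 3 of highest level, differed by 0.40 (SE 0.18, adjusted p = 0.315) and 0.43 (SE 0.16, adjusted p = 0.201).

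Among 7 measured neurotrophic factors and neuronal regulators, SORT1, a sorting receptor that binds proneurotrophins, rose in DU×IB from 7.48 ± 0.35 to 8.14 ± 0.34 (SD, n = 14 each), by 0.66 (SE 0.14, adjusted p = 0.00926 by limma). REST, a repressor of neuronal genes, was higher by 0.72 (SE 0.20, adjusted p = 0.0614) at a dim level of 3.18 in IB. CNTF, a factor made by Schwann cells, differed by -0.43 (SE 0.15, adjusted p = 0.15). RCOR1, the partner of REST, differed by -0.07 (SE 0.15, adjusted p = 0.899). The median of the list was 0.35, and that of its genes outside the study's list was -0.01.

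The 7 nerve list genes that passed had the same sign in both series, beside 55.6% of all probe sets. All 7 were in the study's list and passed on these same arrays. That choice favours an equal sign and a call that holds, so neither is independent evidence. The differences in the series of 16 and of 12 were 1.23 and 2.41 for SYN3, -0.45 and -0.76 for HOMER3, 1.04 and 1.09 for CHODL, 0.44 and 1.04 for ROBO1, 0.78 and 0.74 for MYOC, 0.57 and 0.79 for SORT1, and 1.04 and 0.29 for REST. Without the series SORT1 alone of the 7 passed. With each of the 28 piglets left out in turn, HOMER3, CHODL and SORT1 passed each time. The call was lost in 17 of the 28 fits for SYN3, in 14 for MYOC, in 5 for ROBO1 and in 4 for REST. With median centring SYN3 (adjusted p = 0.111) and MYOC (adjusted p just over the threshold, 0.1 when rounded) did not pass.

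**Figure D5:**
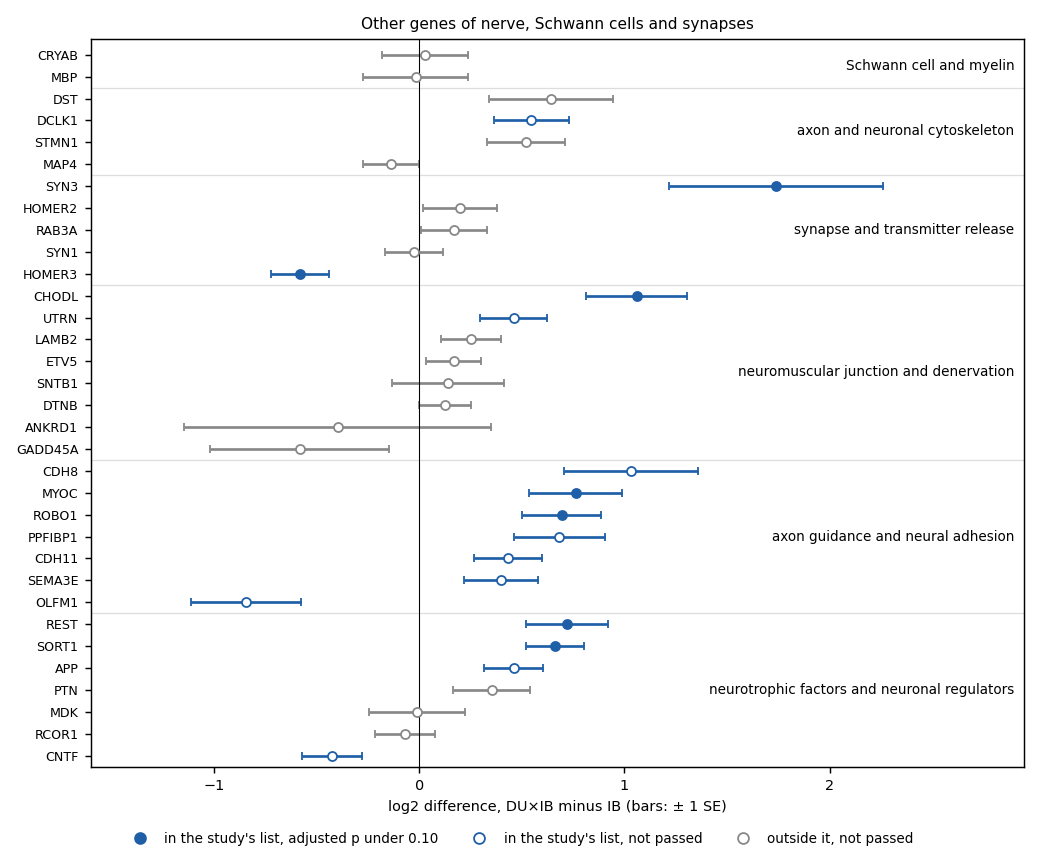
Log2 difference, DU×IB minus IB, with bars of ± 1 SE, of the 33 measured genes in the 6 nerve lists, in blue where the study listed the gene and grey otherwise, and filled where the adjusted p by limma was under 0.10. The filled points are SYN3, HOMER3, CHODL, MYOC, ROBO1, REST and SORT1, and HOMER3 alone among them lies below 0.

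Connective tissue genes were higher in DU×IB beside most members. In the fibroblast list 11 of 15 measured genes passed and were higher in DU×IB, beside 2.07% of all probe sets. All 11 were in the study's list, chosen with this contrast, and are not independent evidence. Of the 15, 15 lay above 0, beside 2746 of all 5226 probe sets, and the median was 0.82. The choice of the 11 favours both values. The genes outside the study's list also lay above 0, with a median of 0.39, and 0 of them passed. The list's mean level ran from 7.35 to 9.68 in IB and from 9.18 to 10.6 in DU×IB. None passed of 11 genes of endothelium and mural cells (median 0.27), 6 of satellite cells and myoblasts (-0.24) or 9 of macrophages (-0.43, with 9 of 9 below 0), and for adipocytes 1 of 7 passed (list median -0.14), RBP7, a retinol-binding protein in the study's list, which was higher in DU×IB by 1.58 (SE 0.37, adjusted p = 0.0202 by limma). The lists of endothelium, satellite cells and macrophages held no gene of the study's list, outside which 0 probe sets passed. Their calls therefore cannot be set against those of the fibroblast list. In bulk muscle, fewer cells of a type and less RNA per cell cannot be told apart.

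Each member was set against the mean residual of the 11 lists over the 28 piglets, a relation added after the values were seen. Of 66 correlations 2 passed at an adjusted p under 0.10, both of MAP1B, and 9 had an unadjusted p under 0.05. MAP1B varied with the axon and cytoskeleton genes at r = 0.671 (permutation p = 0.00022, adjusted p = 0.0145) and rho = 0.741 (permutation p = 3e-05, adjusted p = 0.00198), with 0.693 and 0.718 within the series of 16 and 12 and 0.668 without the 2 farthest piglets. It varied with the fibroblast genes at r = 0.611 (permutation p = 0.00259, adjusted p = 0.0855) and rho = 0.478 (permutation p = 0.0171, adjusted p = 0.248), with 0.594 and 0.630 within the series and 0.524 without the 2 farthest piglets. MAP1B also had r = 0.578 with the adipocyte genes (permutation p = 0.00604, adjusted p = 0.133, rho = 0.494) and 0.479 with those of endothelium and mural cells (permutation p = 0.0188, adjusted p = 0.248, rho = 0.448), so that its r was not high with axon and fibroblast genes alone.

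The other members had r with the fibroblast genes of 0.424 for CNTN3, 0.317 for PTPRD, -0.040 for MTUS2, -0.108 for GPM6B and -0.121 for NRXN3 (permutation adjusted p from 0.308 to 0.959). GPM6B had r = -0.715 with them in the series of 16 and 0.403 in the series of 12, and -0.417 without the 2 farthest piglets, so that its pooled value joins opposite signs. For the other 4 the sign was the same in both series except for MTUS2 (-0.146 and 0.033). With the 2 measured genes of the Schwann cell list, of which CRYAB is also a chaperone of the muscle fibre, r was 0.356 for GPM6B (permutation p = 0.078, adjusted p = 0.396). Its rho was 0.235 (permutation p = 0.273), and r was 0.206 without the 2 farthest piglets. For the other 5 members r ran from -0.142 to 0.252. In the series of 16 and of 12 the sign differed for CNTN3 (-0.394 and 0.59), PTPRD (-0.457 and 0.199), MAP1B (-0.494 and 0.132) and NRXN3 (-0.037 and 0.049). It was the same for GPM6B and MTUS2. The part of connective tissue in the members' differences between genetic types was not tested.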

How the data were processed

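The authors scanned 28 arrays (GCOS and GCRMA are named in the submitters' processing notes, without versions) and deposited log2 values made by GCRMA, which corrects background by probe sequence, normalizes by quantiles and summarizes each probe set. The deposited table holds 5226 probe sets that varied between arrays, so genes of steady level are left out, and 53 control probe sets stayed in. Of the probe sets, 572 were named by the study's tables, 2073 by the platform annotation and 2581 by neither. The members and gene lists were chosen with earlier results of these data known. Named genes are the members, list genes that passed, the 3 of highest mean in each nerve list, the 3 most like each member, and a few others named after their values were seen.

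The methods fit hybridization series, which the labels do not give, so it was recovered from 10 bacterial spike-in probe sets. Genetic types were compared with limma 3.58.1 in R 4.3.3 (lmFit, eBayes, two-sided, series as a block). Correlations used residuals and 100000 permutations within genetic type and series (seed 1, numpy 2.4.6 in Python 3.11.15). For a difference in r between genetic types, the label of genetic type was permuted within series instead. The limma fit and the test of r were tried on simulated data without litters. The test of a difference in r was not. Alternatives were no covariate, the replicate number as a block, median centring, quantile normalization, array weights, dim probe sets left out (mean under 4 in both types), each series alone, a threshold of 0.05 and each piglet left out. Littermates were treated as independent, so that standard errors and p values, by limma or by permutation, may be too small. Precision is limited by how many litters there are, which are fewer than the arrays and fewer in DU×IB than in IB.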

Additional observations from a re-analysis of the deposited data

How the results depend on the processing

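Of all 5226 probe sets 145 passed between genetic types. The count moved to 52 with no covariate, 276 with array weights, 9 and 229 within the series of 16 and of 12, and 80 at a threshold of 0.05. Leaving out each piglet gave 103 to 221, the highest without IB replicate 4, the 1 piglet that moved it by over 1.5 times. In the same order the 8 member probe sets that passed became 3, 8, 1, 4 and 4, and the 7 nerve list genes became 1, 12, 0, 3 and 3. The choice of members favours a call that holds, so the member calls given here are a description and not independent evidence. The first GPM6B probe set, NRXN3, the first PTPRD and the first MTUS2 probe set passed with each of the 28 piglets left out. The other 4 passed in 8 to 13 of the 28 fits, so that 4 to 8 member probe sets passed in all, 4 or 5 of them without any 1 of 14 piglets. For the nerve lists the range was 3 to 10, with 3 without DU×IB replicate 14 and 4 without DU×IB replicate 4 or 7.

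With the replicate number as a block in place of the series, 145 probe sets and 7 nerve list genes passed, and 4 member probe sets. Replicate numbers 1 to 8 make up the series of 16 and 9 to 14 the series of 12. The deviations of same-numbered piglets had correlations from 0.024 to 0.73 with genetic type means removed and from -0.326 to 0.538 (over 0.1 in 2 of 14) with the series removed too, so the numbers were not taken as pairs.

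No alternative run made an interaction with the series pass. The interactions of GPM6B were near 0 and changed sign, to 0.0352 and 0.0364 with median centring and to 0.092 and 0.0626 with quantile normalization on its first and second probe set. Of the 15 pairs of members 0 passed, against 4 with the series left in and 1 within IB, PTPRD and MAP1B. That pair's r changed sign to -0.183 with the series left in and to -0.009 within DU×IB. Between the series the first PTPRD probe set differed by 0.80, higher in the series of 12, and the first MAP1B probe set by -0.75. The cause of the changes in r and in calls was not tested. Levels of REST and of the second MTUS2 probe set lay near the lowest of the table.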
